A study of Mus musculus with 9 samples.

Results

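The 60 genes described here fell in 2 steps, from control to HD-het striatal cells and again from HD-het to HD-homo cells. They were chosen by their read counts in all 9 RNA-seq libraries of the series, as counts per megaread (CPM, the count divided by the total of its library in megareads). A gene was a member where its mean in HD-het cells was at most 0.5 of that in control cells, its mean in HD-homo cells was at most 0.5 of that in HD-het cells, each mean with 0.1 CPM added, its control mean was at least 5 CPM, and no library of a line overlapped a library of the next line. Htt, Stmn2 and Nefm were left out of the choice. None of the 3 met every limit: the mean of Htt, the huntingtin gene, was 99.9 CPM in control, 61.7 CPM in HD-het and 20.4 CPM in HD-homo cells, Stmn2 did not fall at the second step, and Nefm lay at 3.12 CPM in control cells. Of the 36410 genes of the table, 10021 reached 5 CPM in control cells, and 60 of these (0.599%) met all limits. Taken alone, the first step was met by 505 of the 10021 (5.04%) and the second by 857 (8.55%), and the limit on overlap removed no gene that met both. Since the same libraries chose the genes, the differences between the lines below describe the choice and carry no test.

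The samples were 3 immortalized mouse striatal cell lines of the strain C57/BL6, with 3 libraries each. Control cells (STHdhQ7/Q7) carry 7 glutamines on both Htt alleles, HD-het cells (STHdhQ7/Q111) carry a knock-in exon 1 with 111 on 1 allele, and HD-homo cells (STHdhQ111/Q111) carry it on both. All 3 lines share the immortalization and no line had a treatment. Each genotype is 1 line, so that the number of mutant alleles cannot be told apart from the line, and its libraries are not stated to come from separate cultures.

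Huntingtin is a large scaffold protein, and an expanded run of glutamines near its amino terminus causes Huntington disease, in which projection neurons of the striatum are lost first. Changes of transcription are a well-known feature of the disease, and in striatal tissue they include lower levels of many genes for receptors, channels and second-messenger signalling. The members found here were grouped by the known roles of their products, after their values were seen: 11 encode surface sialomucins and adhesion proteins, 10 receptors and regulators of signalling, 8 ligands and other secreted proteins, 8 cytoskeleton and trafficking proteins, 8 transporters, binding proteins and enzymes of metabolism, 5 channel and synaptic proteins, 5 proteins of transcription, chromatin or RNA binding, and 5 proteins of survival, ubiquitin transfer and other roles.

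Library totals ran from 29507665 to 41197931 counted reads, and the TMM factors of edgeR lay between 0.984 and 1.03. The floor was set at 3 counts per library, which is between 0.0728 and 0.102 CPM and covers counting error only. Replicate libraries differed by more than counting noise, with a variance of 2.19 times that of counting between control 1 and control 2 and of 38.9 times between HD-homo 2 and HD-homo 3. Markers of striatal projection neurons were mostly missing in all 3 lines: 11 of 24 passed the filter on low counts, Drd1, Pdyn, Isl1 and Ikzf1 had no read in any library, and the largest count of Ppp1r1b was 17. The summed level of that list was between 193 and 201 CPM in control, 244 and 264 CPM in HD-het and 256 and 308 CPM in HD-homo libraries. Foxp1 was the largest single part of this sum. It lay at 88.1 to 97.8 CPM in control, 112 to 114 CPM in HD-het and 163 to 179 CPM in HD-homo libraries. Of the 11 genes, 3 were lower and 4 higher at the first step and 3 lower and 6 higher at the second by edgeR's quasi-likelihood test. Meis2, with 45.4 to 52 CPM in control, rose to 86.1 to 87.5 CPM in HD-het and fell to 18.7 to 24.2 CPM in HD-homo libraries, and Dlx2 fell from 15.5 to 16.6 CPM in control to 3.96 to 5.72 CPM in HD-het libraries and then rose. Of 10 markers of neural progenitors, 6 passed the filter and Hes5 had no read. Their sum, most of it from Vim, lay between 5899.6 and 6373 CPM in control, 5322 and 5735 CPM in HD-het and 4186 and 4569 CPM in HD-homo libraries. By the same test 2 of the 6 were lower and 3 higher at the first step, and 5 were lower at the second. Sox2 was lower at both (log2 fold changes −0.63 and −3.92), while Nes went from 487.5 to 549 CPM in control up to 807 to 844 CPM in HD-het and down to 21.9 to 34.5 CPM in HD-homo libraries, and Pax6 took the same course. The part of these markers in the results was not tested. No member belonged to any of the 8 lists of cell type markers. In such bulk libraries, fewer cells that express a gene and less of its RNA per cell cannot be told apart.

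The fall of the members was large at both steps. The median log2 ratio was −1.88 from control to HD-het cells (range −6.43 to −1.01) and −2.20 from HD-het to HD-homo cells (range −6.68 to −1.004), against medians of −0.06 and 0.06 over all 10021 genes. The median over the members, taken for each line separately, was 20.6 CPM in control, 5.23 CPM in HD-het and 0.649 CPM in HD-homo cells. The HD-homo level as a share of the control level of the same gene had a median of 4.73%. Together the members took between 0.274% and 0.278% of the reads of a control library, between 0.0700% and 0.0789% of an HD-het library and between 0.0143% and 0.0204% of an HD-homo library. In 31 members every HD-homo library lay under 1 CPM, and in 10 members every HD-homo library was still above 5 CPM. In 14 members the HD-homo mean was under 1% of the control mean. At the other end, Exoc6, a subunit of the exocyst that tethers secretory vesicles, kept 23.2% of its control level in HD-homo cells, the highest share of any member.

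**Figure D1:**
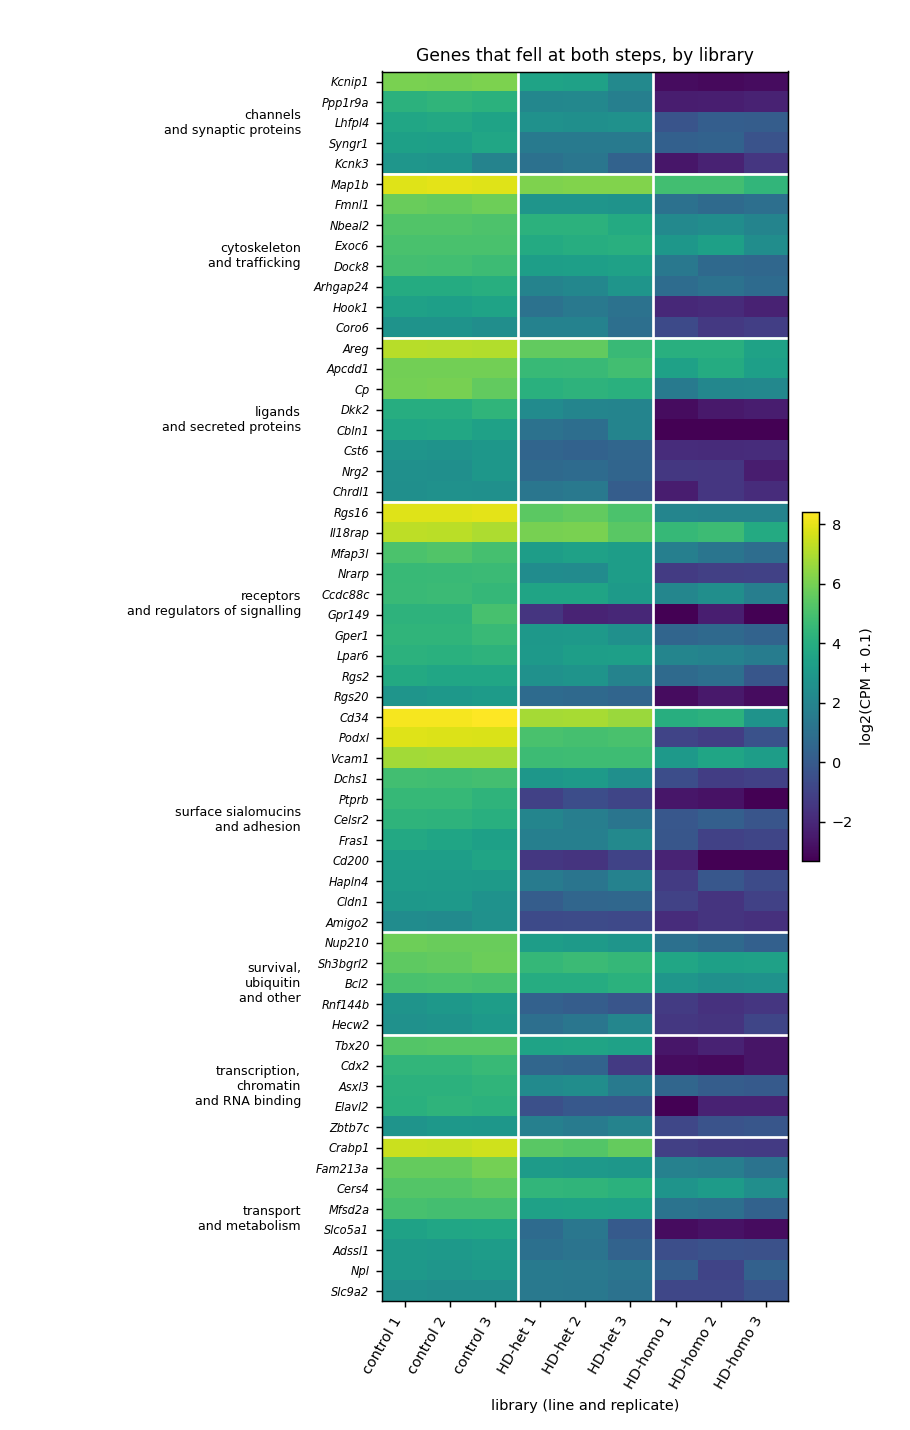
Level of each of the 60 members in each of the 9 libraries, as the log2 of CPM plus 0.1 (colour), with genes in rows grouped by role and libraries in columns. Every row darkens at both vertical white lines, and the HD-homo columns of Cbln1 are at 0 reads.

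The steps were unequal in most members. The second step was the larger one in 38 members and the first in 22, and in 16 members the steps differed by less than 0.5 on the log2 scale. In 7 members the second step exceeded the first by more than 2 on that scale: Crabp1, Tbx20, Kcnip1, Podxl, Dkk2, Cbln1 and Ppp1r9a. In these, HD-het cells kept between 13% and 28.3% of the control level, while every HD-homo library was under 1 CPM. In 5 members the first step was larger by more than 2: Gpr149, Ptprb, Cd200, Elavl2 and Amigo2. The same 5 genes were the ones under 1 CPM in every HD-het library, so that their second step is a difference between low counts. Gpr149 shows this most plainly, with 9, 4 and 5 reads in HD-het cells beside 0, 4 and 0 in HD-homo cells. Across all members, the lowest control library was at least 1.48 times the highest HD-het library, and the lowest HD-het library was at least 1.26 times the highest HD-homo library. The corresponding medians were 3.04 and 3.56.

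**Figure D2:**
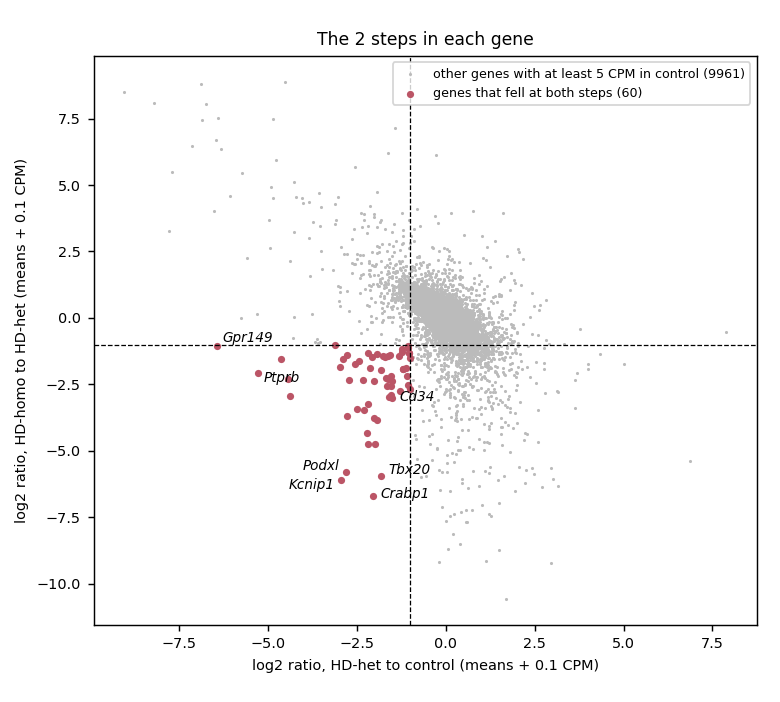
Log2 ratio of the HD-het to the control mean (x axis) against that of the HD-homo to the HD-het mean (y axis), with 0.1 CPM added, for the 10021 genes with at least 5 CPM in control cells. Dashed lines mark the limits of the rule, and the 60 members (red) lie below both, with Gpr149 far to the left and Crabp1 lowest.

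The limits cut through a continuous range of values. Just inside the limit on the first step lay Coro6, a coronin that binds actin, at −1.01, Cers4, a ceramide synthase, at −1.01, and Bcl2, the inhibitor of apoptosis, at −1.02. Just outside it were Tmem171 at −0.99, Chst3 at −0.96 and Fez1 at −0.96. For the second step, Amigo2 at −1.004, Exoc6 at −1.04 and Gpr149 at −1.05 lay inside, and Hr at −0.99, Ston2 at −0.94 and Nhsl2 at −0.93 outside. For the control level, Amigo2 at 5.31 CPM, Slc9a2 at 5.58 CPM and Kcnk3 at 5.85 CPM lay inside, and Elmod1 at 4.74 CPM, Slitrk5 at 4.51 CPM and Fam181b at 4.05 CPM outside.

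The starts of the leading members differed in their promoter sequence. RefSeq promoter windows on GRCm38.p6, from 250 bases before the start to 50 after it, were matched by symbol for 40 of the 60 members. The 100 bases before the start are shown 5′ to 3′ for the 6 members with the highest control level that have a window, because they are the most abundant members with a sequence. Capitals mark the words that were searched on either strand: the TATA box (TATAAA), the GC box (GGGCGG), the CCAAT box (named by its letters), the E-box word (CANNTG) with its palindromic form (CACGTG), the AP-1 word (TGANTCA) and the TEAD word (GGAATG).
Cd34 (chr1:194938721-194938820, plus strand): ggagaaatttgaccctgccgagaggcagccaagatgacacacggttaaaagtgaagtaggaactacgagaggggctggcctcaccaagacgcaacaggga
Rgs16 (chr1:153740253-153740352, plus strand): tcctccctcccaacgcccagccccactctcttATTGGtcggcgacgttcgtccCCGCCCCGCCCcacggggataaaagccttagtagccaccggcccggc
Map1b (chr13:99516603-99516702, minus strand): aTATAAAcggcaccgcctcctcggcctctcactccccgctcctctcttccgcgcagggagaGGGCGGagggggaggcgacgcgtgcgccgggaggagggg
Crabp1 (chr9:54764648-54764747, plus strand): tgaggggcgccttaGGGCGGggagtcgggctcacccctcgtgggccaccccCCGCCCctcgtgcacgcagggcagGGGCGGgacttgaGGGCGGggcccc
Il18rap (chr1:40515262-40515361, plus strand): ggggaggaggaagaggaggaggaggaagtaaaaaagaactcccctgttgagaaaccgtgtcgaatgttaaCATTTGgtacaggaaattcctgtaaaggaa
Areg (chr5:91139499-91139598, plus strand): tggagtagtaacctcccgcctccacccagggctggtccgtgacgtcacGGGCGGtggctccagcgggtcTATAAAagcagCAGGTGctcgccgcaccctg
The stretch of Crabp1 held 4 GC boxes, those of Rgs16, Map1b and Areg held GC boxes as well, Map1b and Areg held a TATA box, and those of Cd34 and Il18rap held neither.

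Over the full windows of the 40 members, the median GC content was 65% and ranged from 38.3% to 83.3%, beside a median of 62% in the windows of 7984 genes with at least 5 CPM in control cells. A ratio of observed to expected CpG above 0.6 was found in 28 members (70%), in 80.5% of those 7984 genes and in 36.4% of all 27025 windows. The palindromic E-box is also a case of the general one. The GC box was in 70% of the members' windows, 69.1% of those of the 7984 genes and 35.9% of all windows. The CCAAT box was in 22.5% of the members' windows, 39.5% of those of the 7984 genes and 37.9% of all. The TATA box was in 10%, 6.26% and 14.2% in the same order, the general E-box in 72.5%, 60.7% and 72.1%, and the palindromic form in 10%, 10.98% and 7.24%. The AP-1 word was in 2 members' windows (5%, against 4.28% and 7.93%), and the TEAD word in 8 (20%, against 11.4% and 14.6%). These shares describe 40 windows and were not tested.

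Among the surface proteins, the sialomucins Cd34 and Podxl stood out for their levels. Cd34 (chr1:194938819-194961279), which encodes a heavily glycosylated surface protein best known from blood progenitors and endothelium, had the highest control mean of all members. Its libraries gave 305, 306 and 343 CPM in control, 113, 119.5 and 101 CPM in HD-het and 16.3, 18.3 and 6.55 CPM in HD-homo cells, a mean of 318 ± 21.8 (SD, n = 3), 111 ± 9.38 and 13.7 ± 6.28 CPM. HD-homo 3 was the low library of its line, while the HD-het libraries lay close together. Podxl (chr6:31519488-31563981) encodes podocalyxin, a member of the same sialomucin family that keeps the foot processes of podocytes apart. Its control libraries held 232, 225 and 214 CPM, its HD-het libraries 32.7, 30.5 and 33.2 CPM and its HD-homo libraries 0.432, 0.34 and 0.685 CPM. Podxl thus fell 6.97-fold at the first step and 66.2-fold at the second, to 0.217% of control. Vcam1, the endothelial and stromal ligand of the integrin very late antigen 4, had log2 steps of −2.06 and −1.47, with 110.0, 114 and 113 CPM in control, 26.3, 27.1 and 27.3 CPM in HD-het and 7.87, 11.7 and 9.29 CPM in HD-homo libraries. Its HD-het libraries were the closest to each other, relative to their mean, of the 12 members with the highest control level. Ptprb, the receptor tyrosine phosphatase of vascular endothelium, went from 23, 23.3 and 19.99 CPM in control to 0.389, 0.579 and 0.442 CPM in HD-het libraries, a 47-fold fall. Its HD-homo libraries held no more than 2 reads, at least 260.2-fold lower than control, taken against the floor of 3 counts per library.

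Since Cd34, Podxl, Vcam1 and Ptprb are also genes of endothelium, the endothelial marker list stands beside them. Of its 8 genes, Cldn5 and Emcn had no read in any library, and the largest count in any library was 6 for Pecam1, 16 for Cdh5 and 33 for Kdr. Only Flt1 was well expressed, and it carried the summed level of the list, which was between 149.5 and 154 CPM in control, 175 and 189 CPM in HD-het and 11.3 and 16.8 CPM in HD-homo libraries. From control to HD-het libraries that sum rose while these members fell, and from HD-het to HD-homo libraries both fell. The part of endothelial genes in the results was not tested.

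The remaining 7 surface proteins include cadherins that act in planar cell polarity, and 5 of them, Dchs1, Celsr2, Fras1, Hapln4 and Cldn1, were named after their values were seen. Dchs1, the ligand of Fat4, went from 28.8 ± 0.888 CPM (SD, n = 3) in control to 7.11 ± 1.33 CPM in HD-het and 0.438 ± 0.131 CPM in HD-homo cells. Celsr2, a flamingo-type cadherin, went from 18.7 ± 1.5 to 3.14 ± 0.852 and 0.88 ± 0.186 CPM. Cd200, the ligand of an inhibitory receptor on myeloid cells, was nearly lost at the first step, from 9.6, 9.37 and 11.4 CPM in control to 0.278, 0.244 and 0.413 CPM in HD-het libraries. Fras1, Hapln4, Cldn1 and Amigo2 had control means between 5.31 and 11.7 CPM. Over all 11 surface proteins the median HD-homo level was 4.31% of control.

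**Figure D3:**
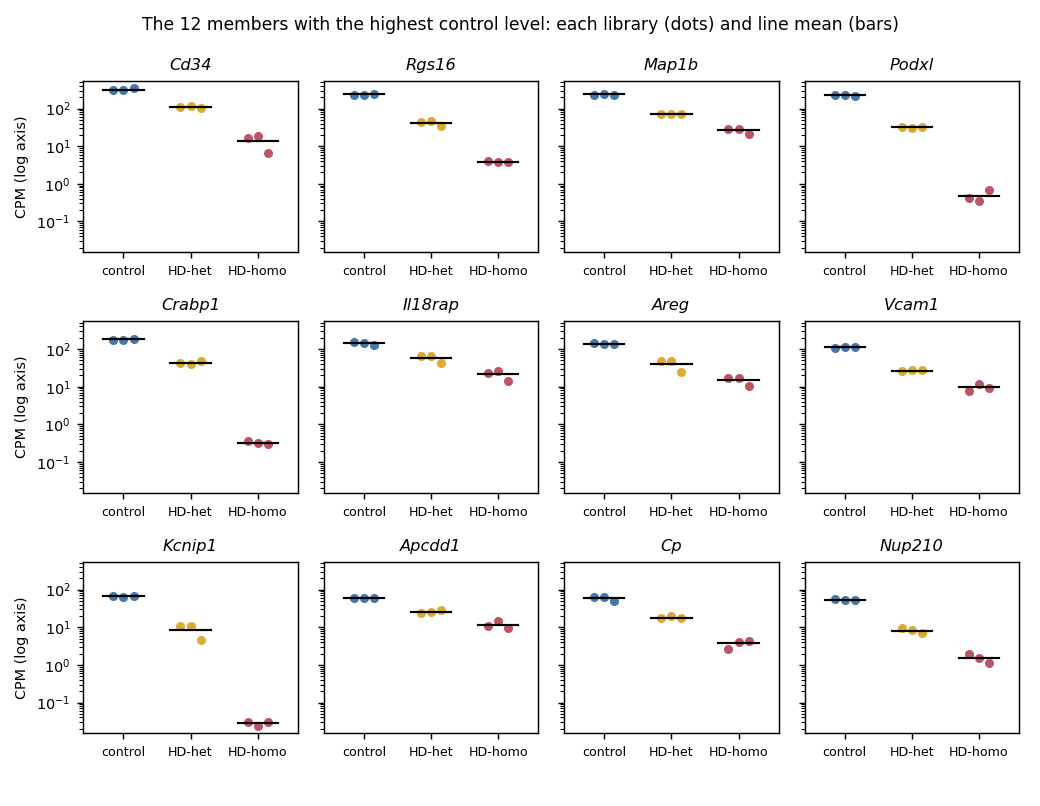
CPM of the 12 members with the highest control mean on a common log axis, with 1 dot per library and a bar at the mean of each line (n = 3). Podxl, Crabp1 and Kcnip1 drop below 1 CPM in all HD-homo libraries, whereas Map1b, Il18rap, Areg, Vcam1 and Apcdd1 stay above 7 CPM.

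Of the 10 receptors and regulators of signalling, 3 are RGS genes, whose products shorten signalling from G protein-coupled receptors by speeding up GTP hydrolysis on the G protein alpha subunit. Rgs16 (chr1:153740349-153745468) was read at 230.4, 233 and 249 CPM in control, 43.7, 47.9 and 34.1 CPM in HD-het and 4.01, 3.71 and 3.72 CPM in HD-homo libraries. The fall was 5.67-fold and then 11-fold, and the HD-homo libraries lay within 0.3 CPM of each other. Rgs2, which acts mainly on Gq, gave 13.8, 12.2 and 12.4 CPM in control, 6.09, 6.76 and 3.71 CPM in HD-het and 1.57, 1.84 and 0.774 CPM in HD-homo libraries, where replicate 3 was the lowest of both HD lines. Rgs20, named after its values were seen, is a regulator of Gz and went from 7.64 ± 0.847 CPM (SD, n = 3) in control to 1.48 ± 0.144 CPM in HD-het cells, with at most 3 reads in any HD-homo library. Lpar6, a receptor for lysophosphatidic acid, fell by less, from 18.3, 17.7 and 19.3 CPM through 7.78, 9.42 and 9.75 CPM to 4.01, 3.64 and 2.95 CPM. The orphan receptor Gpr149 was read at 19.2, 19.2 and 31.9 CPM in control libraries, of which control 3 was the highest, and at no more than 0.2501 CPM in any HD-het library. Il18rap (chr1:40515362-40551705), the accessory subunit of the interleukin 18 receptor, was at 155, 149 and 126 CPM in control, 64.1, 66.2 and 42.7 CPM in HD-het and 23.4, 26.2 and 14.6 CPM in HD-homo libraries. It fell 2.48-fold and 2.69-fold, and replicate 3 was the lowest of each line. The other 4, named after their values were seen, were Nrarp, a feedback inhibitor of Notch, Gper1, a G protein-coupled estrogen receptor, Ccdc88c, a regulator of Wnt and G protein signalling, and Mfap3l. Of these Nrarp was lowered most, from 24.7 ± 1.02 CPM in control to 6.39 ± 2.33 and 0.353 ± 0.0403 CPM in HD-het and HD-homo cells.

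The ligands and secreted proteins were led by Areg (chr5:91139599-91148432), which encodes amphiregulin, a ligand of the EGF receptor. It gave 143, 137 and 133 CPM in control, 47.9, 48 and 24.8 CPM in HD-het and 17, 17.2 and 10.6 CPM in HD-homo libraries. The first step was 3.42-fold and the second 2.7-fold, and replicate 3 was well below the other 2 in both HD lines. Apcdd1, a membrane-bound inhibitor of Wnt signalling, showed the mildest fall of the 12 highest members, from 61.2, 60.1 and 61.2 CPM through 24.1, 24.8 and 29.4 CPM to 10.5, 14.7 and 9.71 CPM. Cp, which encodes the copper-binding ferroxidase ceruloplasmin, was at 63.1, 63.7 and 48.5 CPM in control, 17.3, 19.4 and 17.7 CPM in HD-het and 2.72, 4.17 and 4.32 CPM in HD-homo libraries. Dkk2 and Cbln1 reached the floor in HD-homo cells. Dkk2, a modulator of the Wnt coreceptors, went from 16.1, 16 and 20.3 CPM to 4.95, 4.02 and 3.89 CPM in HD-het libraries and to no more than 3 reads in the HD-homo libraries, at least 50.5-fold lower than in HD-het cells. Cbln1, a secreted organizer of synapses, went from 12.4, 13.2 and 10.3 CPM to 2.06, 1.8 and 3.83 CPM, with no read in any HD-homo library, which puts it at least 30.2-fold below HD-het cells. HD-het 3 was the highest HD-het library for Cbln1, unlike for Areg. Nrg2, Chrdl1 and Cst6, named after their values were seen, encode a neuregulin, a BMP antagonist and a cystatin, and their control means lay between 5.92 and 6.86 CPM.

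Kcnip1 had the largest fall of all members from control to HD-homo cells on the log2 scale with 0.1 CPM added, and was at least 789-fold lower against the floor. It encodes KChIP1, a calcium-binding auxiliary subunit of Kv4 potassium channels (chr11:33629339-33993152). Its libraries gave 67.6, 64 and 69.5 CPM in control and 11, 10.5 and 4.48 CPM in HD-het cells, and 1 read in each HD-homo library. HD-het 3 held less than 0.5 of the level of the other HD-het libraries. Ppp1r9a encodes neurabin, which binds actin and protein phosphatase 1 at dendritic spines, and is listed among imprinted genes. It was at 18.3, 20.2 and 17.8 CPM in control, 4.2, 4.33 and 3.3 CPM in HD-het and 0.0926, 0.0971 and 0.119 CPM in HD-homo libraries. Kcnk3, an acid-sensitive background potassium channel, was one of the least abundant members, with 7.13, 6.67 and 3.76 CPM in control, 1.97, 2.38 and 1.21 CPM in HD-het and 0.0617, 0.121 and 0.268 CPM in HD-homo libraries, and control 3 was the low control library. Lhfpl4 and Syngr1, named after their values were seen, act at inhibitory synapses and on synaptic vesicles, and kept 7.56% and 9.49% of their control level in HD-homo cells. Pan-neuronal markers passed the filter in 3 of 10 cases, and their summed level lay between 97.03 and 118 CPM in control, 109 and 117 CPM in HD-het and 90.7 and 115 CPM in HD-homo libraries.

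The cytoskeleton and trafficking group was led by Map1b (chr13:99421446-99516540), a microtubule-associated protein of growing axons. Its libraries gave 234, 248 and 229 CPM in control, 70.2, 72.7 and 73.6 CPM in HD-het and 28.6, 29.2 and 20.9 CPM in HD-homo cells, a fall of 3.28-fold and 2.75-fold. Map1b was the most abundant member by CPM in HD-homo cells, above Il18rap, while Cd34 was the most abundant in the other two lines. Among the other 7, Coro6 and Exoc6 were near a limit of the rule, and Fmnl1, a formin that builds actin filaments and was named after its values were seen, fell most at the first step, from 53 ± 3.35 to 6.73 ± 0.3004 CPM (SD, n = 3). Over the 8 genes of the group, the median HD-homo level was 8.73% of control.

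Tbx20 (chr9:24718138-24774303), a T-box transcription factor of the heart and of motor neurons, was steady within control and HD-het libraries. It was read at 38.3, 39.7 and 39.5 CPM in control, 11.1, 11.6 and 10.5 CPM in HD-het and 0.0617, 0.121 and 0.0596 CPM in HD-homo libraries, the latter no more than 5 reads each. Cdx2, a homeobox factor of the posterior embryo and the intestine, was at 21, 20.8 and 24 CPM in control and 1.36, 1.22 and 0.295 CPM in HD-het libraries, with no more than 2 reads in an HD-homo library. Elavl2, an RNA-binding protein of the neuronal Hu family, was at 17.5, 20.1 and 18.7 CPM in control, 0.639, 0.853 and 0.825 CPM in HD-het and 0, 0.121 and 0.119 CPM in HD-homo libraries. Asxl3, a Polycomb-associated protein, and Zbtb7c, a zinc finger factor, were named after their values were seen and kept 5.74% and 9.01% of control in HD-homo cells.

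Crabp1 (chr9:54764748-54773110), which encodes a cytosolic protein that binds retinoic acid, had the largest second step of all members on the log2 scale with 0.1 CPM added. It was read at 177, 173 and 191 CPM in control, 42.5, 39.2 and 49.3 CPM in HD-het and 0.37, 0.316 and 0.298 CPM in HD-homo libraries. The first step was 4.13-fold and the second 133-fold. Levels were also taken per kilobase of exon, with the exons of all annotated transcripts of a gene merged. This length can exceed that of the transcript in use, so the scale compares genes only roughly. On it, Crabp1 had the highest control level of all members, 225 CPM per kb, ahead of Areg at 113, Rgs16 at 102, Cd34 at 43.6 and Podxl at 40.8 CPM per kb. The median member was at 3.28 CPM per kb. In HD-homo cells this order was no longer kept, with Areg at 12.3 and Crabp1 at 0.409 CPM per kb. Slco5a1, an orphan of the organic anion transporter family, went from 10.9, 12.1 and 12.8 CPM in control to 1.61, 2.41 and 0.913 CPM in HD-het libraries and held no more than 2 reads in an HD-homo library. Slc9a2, a sodium/proton exchanger, and Cers4 were near limits of the rule. Mfsd2a, named after its values were seen, takes up lysophosphatidylcholine with its fatty acid and went from 30.9 ± 0.743 CPM (SD, n = 3) to 10.5 ± 0.199 and 1.71 ± 0.468 CPM.

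Nup210, a membrane protein of the nuclear pore, led the last group. Its libraries gave 57.7, 53.5 and 52.5 CPM in control, 9.31, 8.29 and 6.95 CPM in HD-het and 1.94, 1.5 and 1.13 CPM in HD-homo cells. Bcl2, which holds back the mitochondrial pathway of apoptosis, fell by little more than the limit at both steps, from 33.1, 34 and 32.4 CPM through 15.3, 15.2 and 18.3 CPM to 7.19, 5.87 and 6.28 CPM. Rnf144b and Hecw2, ubiquitin ligases named after their values were seen, had control means of 7.79 ± 1.25 and 6.76 ± 0.91 CPM (SD, n = 3).

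The members varied between replicate libraries, with a median coefficient of variation of 6.78% in control, 14.2% in HD-het and 26.0% in HD-homo cells, beside 4.27%, 5.81% and 7.43% over the 10021 genes. Next, a library was set against the mean of the other 2 of its line, with 0.1 CPM added. In HD-het 3, 17 members (28.3%) were off by more than 0.5 on the log2 scale, 12 of them lower, beside 2.17% of the 10021 genes. In HD-homo 3 it was 21 members (35%), 16 of them lower, beside 4.03%. In control 1 and control 2 no member was off by that much, and in control 3 it was 2 members. The rule selects low counts in the HD lines, so the same was done for members with at least 5 CPM in the line itself. There, 5 of 30 members were off in HD-het 3 (16.7%), beside 2.25% of 10269 genes. Of the 10 members at that level in HD-homo cells, 4 were off in HD-homo 2, all higher, and 4 in HD-homo 3, all lower, beside 4.30% and 4.14% of 10099 genes. Without HD-het 3, Cers4, Coro6, Exoc6, Nbeal2 and Rgs2 no longer met the rule. Leaving out each library in turn, 49 of the 60 members met it every time. The other 6 of the 11 that did not were Amigo2, Bcl2, Gpr149, Lhfpl4, Lpar6 and Sh3bgrl2.

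**Figure D4:**
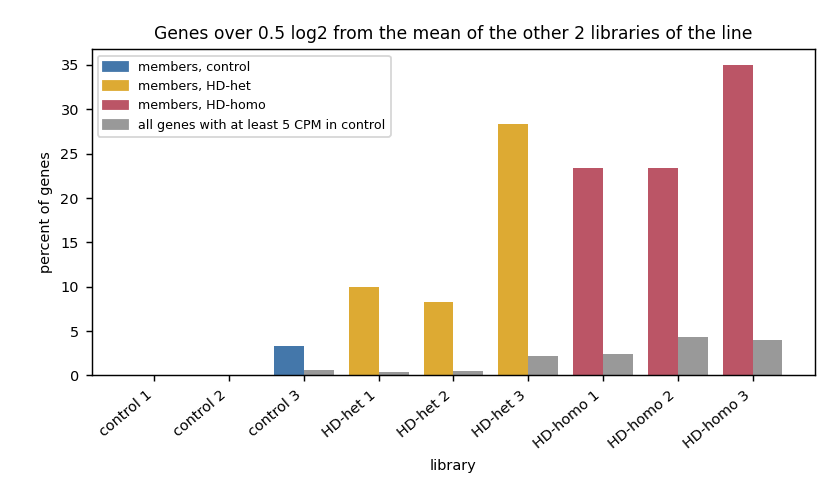
Percent of genes whose CPM differed by more than 0.5 on the log2 scale from the mean of the other 2 libraries of the line, for the 60 members (coloured bars) and all 10021 genes with at least 5 CPM in control cells (grey bars). HD-het 3 (28.3%) and HD-homo 3 (35%) have the highest bars of their lines, and the members' bars are above the grey ones in every library except control 1 and control 2, where no member differed.

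Other genes of the pathways that the members belong to moved in both directions. Over all 13508 genes that passed edgeR's filter, 31.4% were lower and 33.8% higher at the first step, and 35.6% were lower and 36% higher at the second (edgeR's quasi-likelihood test, Benjamini-Hochberg adjusted p under 0.05). Lower at both steps were 419 genes (3.1%), and the median log2 fold changes were 0.03 and 0.00. The members of each list were chosen for falling at both steps in these libraries, so they are left out of the counts that follow. Of 31 other genes for G protein-coupled receptors and their regulators that passed the filter, beside the members Rgs16, Rgs2 and Lpar6, 5 were lower and 20 higher at the first step and 15 lower and 12 higher at the second, with medians of 0.77 and −0.62. Of 36 Wnt genes other than Dkk2, 10 were lower and 20 higher at the first step and 15 lower and 13 higher at the second (medians 0.50 and 0.07). The 3 that were lower at both were the Frizzled receptors Fzd2 (log2 fold changes −0.26 and −0.35), Fzd6 (−0.30 and −0.29) and Fzd3. Fzd3 had log2 fold changes of −0.49 (adjusted p = 0.000717) and −1.47 (adjusted p = 1.49e-07). Of 50 patterning transcription factors other than Tbx20, 16 were lower and 21 higher at the first step and 21 lower and 20 higher at the second (medians 0.22 and −0.22). Lower at both were Lhx9 (log2 fold changes −0.94 and −0.70), Nr2f1 (−0.36 and −4.46), Nr2f2 (−0.72 and −0.80) and Shox2 (−0.55 and −1.09). The fall of the nuclear receptor Nr2f1 was larger at the second step than at the first.

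In the list of growth factors and the IGF axis, 6 of 42 tested genes other than Areg were lower and 18 higher at the first step and 16 lower and 19 higher at the second (medians 0.17 and 0.21). Fgf5 was lower at both, with a log2 fold change of −1.93 at the first step. Its HD-homo libraries held no more than 2 reads each, so the size of its second step is not given. Of 16 genes for the growth cone and its cytoskeleton other than Map1b, 3 were lower and 10 higher at the first step and 10 lower and 2 higher at the second (medians 0.27 and −0.33). Of 25 imprinted genes other than Ppp1r9a, 9 were lower and 12 higher at the first step and 16 lower and 6 higher at the second (medians 0.18 and −0.42), and Peg10 (log2 fold changes −0.47 and −0.60), Peg12 (−0.58 and −0.42) and Trappc9 (−0.17 and −0.34) were lower at both. No member was in the lists of collagens, matrix glycoproteins and crosslinkers, smooth muscle contractile genes, axon guidance, cadherins and neural adhesion, TGF-beta and BMP, ion channels, interferon-stimulated genes or hox genes. These lists do not hold every gene of their class. The members Dchs1 and Celsr2 are cadherins, Kcnk3 is a potassium channel and Chrdl1 a BMP antagonist, and none of them was listed there. The hox genes followed another course, with 22 of 25 tested genes lower at the first step and 22 higher at the second.

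Close relatives of the members were looked at gene by gene, in families chosen after the members were known. Of 21 RGS genes in the table, 8 reached 1 CPM in control cells, and Rgs16, Rgs2, Rgs20 and Rgs8 met both fold limits, Rgs8 with libraries at 1.52 to 1.76 CPM in control, 0.118 to 0.427 CPM in HD-het and 0.0243 to 0.0617 CPM in HD-homo cells. The other 4 were not. Rgs3 was at 23.8 to 25.5 CPM in control, 21 to 24 CPM in HD-het and 27 to 34.3 CPM in HD-homo libraries, and Rgs19 at 27.1 to 29.1, 28.6 to 35.3 and 31 to 39.6 CPM. Rgs12 was highest in HD-het cells, at 58.4 to 65.4 CPM against 26.3 to 27.8 CPM in control, and Rgs10 in HD-homo cells, at 13.3 to 15.5 CPM against 3.93 to 5.59 CPM in control. Rgs4, which was nearly silent in control cells, was at 18.5, 20.8 and 17.7 CPM in the HD-homo libraries. Podxl2, the third sialomucin beside Cd34 and Podxl, was read at 7.78, 8.6 and 7.86 CPM in control, 16.8, 16.4 and 14.6 CPM in HD-het and 2.44, 1.89 and 1.22 CPM in HD-homo libraries, so that it was highest in HD-het cells. Crabp1, Kcnip1, Dkk2 and Cbln1 were each the only gene of their family that reached 1 CPM in control cells. Some relatives were higher in an HD line: Dkk3 at 6.78 to 8.25 CPM in HD-het libraries, and Kcnip3 at 2.11 to 2.86 CPM and Crabp2 at 1.31 to 2.01 CPM in HD-homo libraries. The rest of these relatives stayed under 1 CPM in every library. For the Hu proteins, the ubiquitous Elavl1 was at 163 to 170.1 CPM in control, 133 to 139 CPM in HD-het and 132 to 154 CPM in HD-homo libraries, beside the fall of Elavl2.

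The EGF-family ligands took different courses. Ereg, chosen after its values were seen, encodes epiregulin and lies close to Areg on chromosome 5 (chr5:91074617-91093649). It was read at 60.8, 57.8 and 47.1 CPM in control, 186, 209 and 119.8 CPM in HD-het and 439, 581 and 472 CPM in HD-homo libraries. It was higher at both steps by edgeR's quasi-likelihood test, with log2 fold changes of 1.65 (adjusted p = 1.31e-05) and 1.51 (adjusted p = 1.52e-05). Of the other ligands of the family with at least 1 CPM in control cells, Nrg2 was a member. Btc was highest in HD-het cells (3.74 to 6.7 CPM), as was Hbegf (674 to 909.6 CPM), and Tgfa (7.26 to 8.52 CPM) and Nrg1 (143 to 201 CPM) were highest in HD-homo cells.

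**Figure D5:**
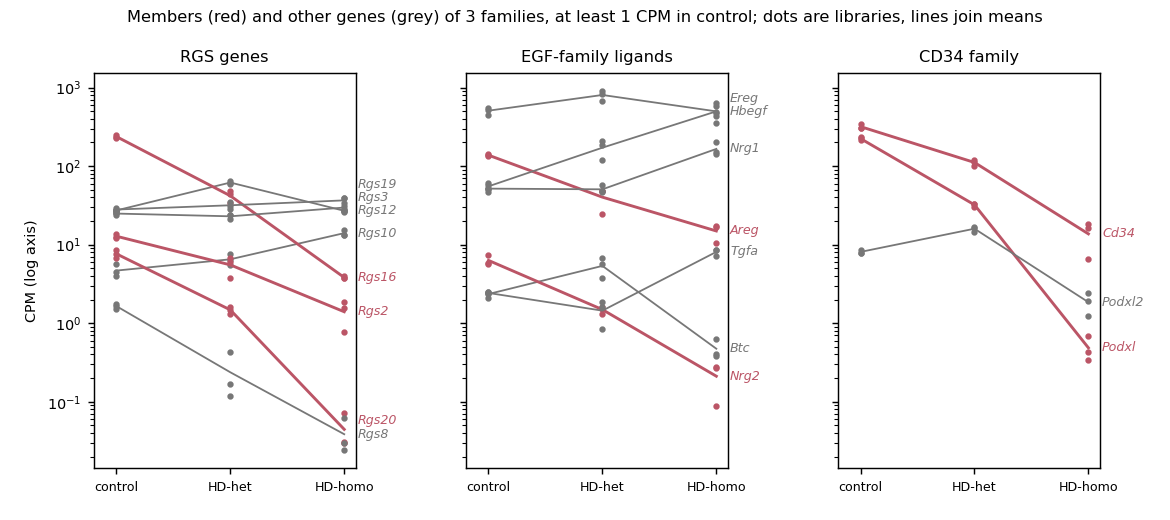
CPM on a log axis by line for genes of the RGS, EGF-ligand and CD34 families with at least 1 CPM in control cells, with 1 dot per library and lines joining the means. Members are red, and the grey lines show relatives that took other courses, among them Ereg, which rises from 55.2 CPM to meet Hbegf at 497 CPM.

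All 60 members are protein-coding genes with a position on GRCm38 in GENCODE and RefSeq. On chromosome 1 lie 10 of them (16.7%), beside 5.73% of the genes with at least 5 CPM in control cells: Rgs20, Slco5a1, Il18rap, Slc9a2, Hecw2, Bcl2, Rgs2, Npl, Rgs16 and Cd34. On that chromosome 3.33% of such genes met the first step and 15.1% the second. Pairs of members within 200000 bases of each other were Rgs16 with Npl and Il18rap with Slc9a2. The receptor gene Il1rl1, on the other side of Il18rap, went the other way, with means of 787 CPM in control, 1102 CPM in HD-het and 2498 CPM in HD-homo cells and log2 fold changes of 0.50 and 1.15. Of 192 genes with at least 5 CPM that had a member within that distance, 5.73% met the first step and 11.5% the second. These shares include 4 members, which met both steps by the rule. Over all 10021 genes the shares were 5.04% and 8.55%. The median log2 ratios of the 192 genes were −0.08 and −0.03. The median of the other genes differed between chromosomes, from −0.62 on chromosome 15 to 0.24 on chromosome 18 at the first step, and was 0.09 and −0.19 on chromosome 1 at the first and second step. Each gene's ratios were then centred on the median of its chromosome, an alternative chosen after seeing the data. With this, 55 of the 60 members still met the limits, among them all 10 on chromosome 1. The medians of chromosome 1 were too small to move any of its members across a limit, so their number there was not tested.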

How the data were processed

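Total RNA of the 3 striatal lines was poly(A)-selected and made into directional libraries. The authors deposited raw counts per gene symbol for each of 9 libraries, without normalization. The submitters' processing notes name cutadapt, Bowtie 1.1.2, RSEM 1.3.0, DESeq2 and the builds GRCm38.p5 and mm10, without roles. If RSEM made the counts, reads shared by similar genes were split by estimate. Whether the counting used strand is not given in the sources used here.

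CPM used the library total, with 0.1 CPM added before ratios. The members and gene lists were chosen with earlier results of these data known. Lines were compared over all genes with edgeR 4.0.16 in R 4.3.3 (filterByExpr with a minimum count of 10, TMM, quasi-likelihood test, Benjamini-Hochberg adjustment, threshold 0.05, 1 mean per line over 9 libraries), for gene lists and background shares only. The p-values set the differences between lines against the spread between libraries, and cover no spread between lines of the same genotype. Scripts were tested on simulated data. Named were the 12 members with the highest control mean, the 12 with the largest ratio of control to HD-homo mean, members of the lists, and 3 genes inside and outside each limit. Other members named were chosen after their values were seen. Ratios over a line at 3 counts or fewer in every library are bounds against 3 counts per library. Positions are from GENCODE M21 and promoters from RefSeq, both GRCm38. 26 rows of the table hold a date in place of a symbol. Protein sequences were not used here. Alternatives were other normalizations, an added 1 CPM, other limits, thinned counts, each library left out, DESeq2 1.42.0, no filter, 2 lines only and a replicate block.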

Additional observations from a re-analysis of the deposited data

How the results depend on the processing

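The number of members was 60 and lay between 40 and 78 under every alternative but one: with steps of at least 1.5-fold, 111 genes met the rule, the 60 members among them. With 1 CPM added, 40 genes met it, all of them members, and with TMM-normalized CPM 59 did, 58 of them members. The median log2 ratio of the members was −1.74 for the first step and −1.38 for the second with 1 CPM added, a sum that by construction understates falls at low levels, against −1.88 and −2.20. With the 7 members at the floor set to their bound, the median of the second step was −2.22. These bounds have no 0.1 CPM added, unlike the other ratios, so this median is not on the same scale as −2.20. Leaving out 1 library at a time gave medians between −2.26 and −2.06 for the second step, and between 59 and 64 genes that met the rule. The numbers of genes that differed between lines stayed within 1.5 times in all alternatives. With the replicate block they were 9160 for HD-het versus control, 9938 for HD-homo versus HD-het and 8372 for HD-homo versus control cells, against 8797, 9666 and 7910. Same-numbered libraries had correlations of deviations across genes between −0.00532 and 0.145. Such correlations cannot show whether same-numbered libraries share a batch or a culture, which was not tested. Depth limits the second step of the 5 members that were under 1 CPM in every HD-het library, and the HD-homo level of the 7 members at the floor is known only as an upper limit.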

Other observations

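Below the limit of 5 CPM in control cells, 18 more genes met both steps without overlap at a control mean of at least 1 CPM. They were chosen by the same libraries and carry no test here, and those named here were picked after their values were seen. Slitrk5, a transmembrane protein that shapes neurites and synapses, went from 4.06, 4.08 and 5.39 CPM in control to 0.222, 0.366 and 0.295 CPM in HD-het libraries, with no more than 1 read in an HD-homo library. Snap91, which acts in the recycling of synaptic vesicles, had 0.805, 1.49 and 0.746 CPM in control, 0.361, 0.427 and 0.295 CPM in HD-het and no more than 1 read in an HD-homo library. Chrna5, a subunit of nicotinic acetylcholine receptors, had libraries at 2.29 to 3.19 CPM in control, 0.413 to 0.457 CPM in HD-het and 0.0596 to 0.194 CPM in HD-homo cells. The growth factor Fgf5 had 2.34 to 3.19 CPM in control and 0.67 to 0.862 CPM in HD-het libraries and no more than 2 reads in an HD-homo library, and the hedgehog inhibitor Hhip had 1.64 to 2.51 CPM and 0.445 to 0.67 CPM and no more than 3 reads. The course opposite to that of the members, with the limits mirrored, was taken by 118 genes.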
